A study of Mus musculus with 4 samples.

Results

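The primary granule genes of myeloid progenitors were followed in LSK cells (lineage- Sca1+ cKit+, the fraction of fetal liver that holds hematopoietic stem cells and multipotent progenitors). The group holds 6 named genes, *Mpo*, *Elane*, *Prtn3*, *Ctsg*, *Ms4a3* and *Srgn*, taken as every probe set whose gene symbol is one of these names (*Elane* under its older symbol Ela2). All 6 were found, with 1 probe set each, among 20656 genes and 45037 probe sets. The controls were DDB1 flox/flox, VavCre- embryos and the *Ddb1*-deficient samples DDB1 flox/flox, VavCre+ embryos, both on a C57BL/6x129 background and both taken at E16.5, so that the floxed *Ddb1* alleles are shared by the groups and Cre is not. Cre under Vav1 control is active in blood cells of every lineage and stage and is not specific to LSKs. Each group holds 2 arrays. How many embryos made up a sample is not stated for these cells. Every p-value here rests on 2 arrays a group, and those of limma also draw on the spread of all genes.

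Primary granules, also called azurophil granules, are the first granules that a cell builds on the way to a neutrophil, and their contents are transcribed at the progenitor and promyelocyte stages and switched off later. Myeloperoxidase turns hydrogen peroxide and chloride into hypochlorous acid. Neutrophil elastase, proteinase 3 and cathepsin G are related serine proteases that cathepsin C trims to their active form, and serglycin is the proteoglycan whose sulfated sugar chains hold such basic proteins in the granule. *Ms4a3* encodes a membrane protein that marks granulocyte-monocyte progenitors. Stem cells express little of the enzymes, so these genes are commonly read as a sign of myeloid priming within LSKs.

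The promoter sequences of the 4 granule enzymes are shown because their genes had the 3 most negative differences of the group and the protease neighbour of one of them. Each run is the 250 bases before the annotated start (RefSeq, build GRCm38.p6), written 5′ to 3′ on the strand of the gene, and capitals mark GAGGAA or its reverse complement, a sequence bound by PU.1 and other ETS factors. The windows are chr11:87793534-87793783 (+) for *Mpo*, chr10:79886062-79886311 (+) for *Elane*, chr10:79879417-79879666 (+) for *Prtn3* and chr14:56102575-56102824 (-) for *Ctsg*.
Mpo: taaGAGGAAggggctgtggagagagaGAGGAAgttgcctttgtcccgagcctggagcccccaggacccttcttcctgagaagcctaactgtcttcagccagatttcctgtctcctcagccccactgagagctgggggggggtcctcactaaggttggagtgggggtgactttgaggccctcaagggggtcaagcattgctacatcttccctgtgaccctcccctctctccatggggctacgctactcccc
Elane: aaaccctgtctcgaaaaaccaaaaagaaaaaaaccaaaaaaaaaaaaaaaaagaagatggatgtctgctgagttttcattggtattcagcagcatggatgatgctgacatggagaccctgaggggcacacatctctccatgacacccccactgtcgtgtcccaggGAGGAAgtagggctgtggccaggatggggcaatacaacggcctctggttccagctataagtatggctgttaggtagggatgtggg
Prtn3: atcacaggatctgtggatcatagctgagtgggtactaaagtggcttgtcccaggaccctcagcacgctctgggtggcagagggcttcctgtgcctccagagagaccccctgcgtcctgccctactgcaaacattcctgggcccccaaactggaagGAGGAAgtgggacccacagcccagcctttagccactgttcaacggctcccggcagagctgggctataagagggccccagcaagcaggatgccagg
Ctsg: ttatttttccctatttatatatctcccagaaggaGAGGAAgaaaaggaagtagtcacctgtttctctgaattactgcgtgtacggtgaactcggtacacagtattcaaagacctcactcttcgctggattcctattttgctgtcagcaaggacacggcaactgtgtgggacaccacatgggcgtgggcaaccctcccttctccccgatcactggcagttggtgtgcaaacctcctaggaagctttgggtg
GAGGAA was found in these 4 windows, on the strand of the gene in each case, and in none of the windows of *Ms4a3* (1 window) and *Srgn* (2 windows), while 23.3% of all 32851 promoter windows of this length hold it on either strand. In *Mpo* it stands at -247 to -242 and at -224 to -219 from the start, in *Elane* at -85 to -80, in *Prtn3* at -95 to -90 and in *Ctsg* at -216 to -211. TATAA was found in 4 members and in 22.8% of all windows; it lies at -31 to -27 in *Elane* and at -32 to -28 in *Prtn3*. Searched in the same way on both strands, TTNNGNAA (a C/EBP pattern) was in 2 members, *Ms4a3* and *Srgn*, and in 36.8% of all windows, TGTGGT (RUNX) in 2 members and 14%, and AACNG (MYB) in 5 members and 74.2%. These matches describe letters and not binding.

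Values are RMA intensities on the log2 scale, and an error is the SD of 2 arrays. *Ddb1* itself measured 6.06 and 6.26 in the controls against 4.58 and 4.33 in *Ddb1*-deficient LSKs (limma adjusted p = 0.162). Where its probe set lies relative to the deleted part of the gene is not known. *Kit* (5.63 to 6.41) and *Ly6a*, the gene for Sca1 (6.32 to 7.30), were present on all arrays with overlapping groups. They belong to a list of 7 LSK marker genes, of which 2 were lower and 0 higher on both *Ddb1*-deficient arrays, against 18.5% and 22.5% of all genes. The lower ones were *Cd27* (log2 difference -0.905) and *Cd48* (-0.872), and limma called 0 of the list after adjustment. In the paper CD48 is one of the surface markers that define multipotent progenitors and, in adult marrow, short-term stem cells. By flow cytometry of *Ddb1*-deficient E16.5 fetal liver the paper reports relatively more long-term stem cells and fewer multipotent progenitors. The part of LSK subsets in the results below was not tested. Of the lineage markers *Itgam* (1.46 to 1.78) and *Cd3e* (1.31 to 1.66) were below the median probe set. This median lay between 2.03 and 2.09 on the 4 arrays. In both groups array 2, and not array 1, carried *Xist* (10.09 and 9.96 against 1.93 and 2.15), while array 1 carried the Y-linked *Kdm5d* (7.40 and 6.86 against 1.43 and 1.67), so that the 2 arrays of a group hold RNA of different embryos. All 11 macrophage markers listed were higher on both *Ddb1*-deficient arrays, with a median log2 difference of 2.75 and a summed linear intensity of 2405 and 3744 on the control arrays against 15269 and 18622, and none was below the median probe set on all arrays. Endothelial markers (5 of 8), erythroid markers (3 of 5) and hepatoblast markers (4 of 5) were higher on both *Ddb1*-deficient arrays as well, against 22.5% of all genes. Their summed intensities were 45 and 61 against 148 and 166, 63 and 192 against 493 and 687, and 157 and 185 against 673 and 923. The part of these markers in the results below was not tested.

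All 6 genes were lower on both *Ddb1*-deficient arrays than on both control arrays, whereas 18.5% of all genes were separated in this direction and 22.5% in the other. The median log2 difference was -2.94 over the 6 genes and 0.03 over all genes. A difference of -2 or less was found for 5 of the 6 genes and for 1.07% of all genes; a difference of -1 or less was found for the same 5 genes and for 5.74% of all genes, and 1 or more for none of the 6 and for 4.84%. After Benjamini-Hochberg adjustment over all genes limma called 0 of the 6, as it called 0 genes of the whole array in either direction (0%), with a smallest adjusted p of 0.133. At an unadjusted p under 0.05 limma gave 5 of the 6 lower, against 6.03% of all genes, and the methods' test gave 4 of the 6, against 3.73% of all genes, and 0 after adjustment. The smallest exact two-sided permutation p that 2 arrays against 2 can give is 0.333. In these bulk samples fewer cells that express the genes, whether progenitors or more mature cells, and less RNA per cell cannot be told apart.

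**Figure D1:**
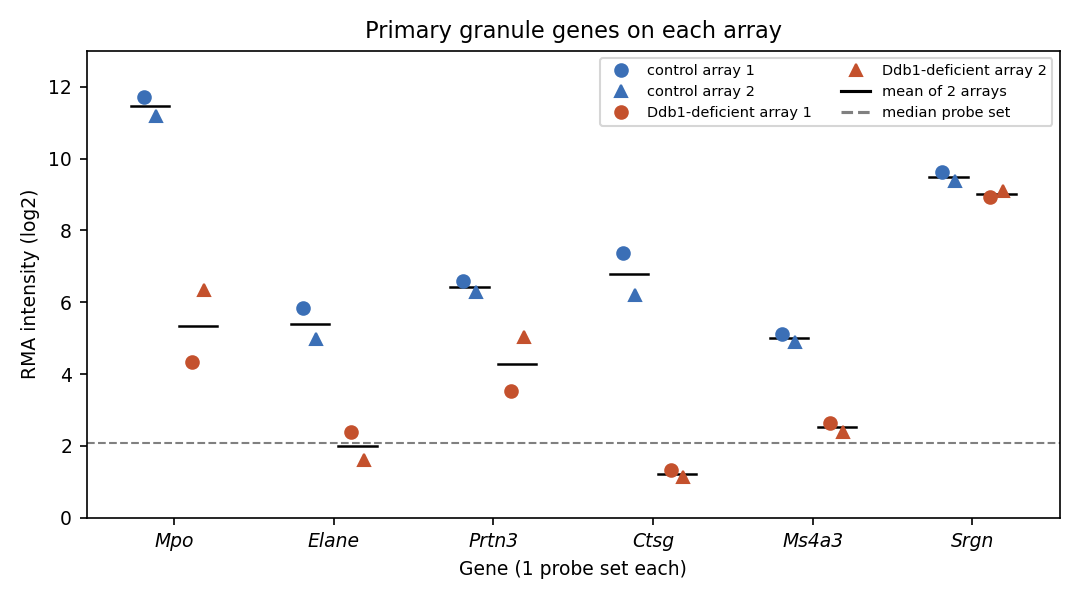
RMA intensity (log2) of the 6 primary granule genes on the 2 control arrays (blue) and the 2 *Ddb1*-deficient arrays (red); circles are array 1, triangles array 2, bars the mean of 2 arrays and the dashed line the highest array median (2.09). For every gene both red points lie below both blue points, by most for *Mpo* and *Ctsg* and by least for *Srgn*.

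*Mpo*, the gene of the granule peroxidase, measured 11.70 and 11.19 in the controls against 4.34 and 6.35 in *Ddb1*-deficient LSKs. Both *Ddb1*-deficient arrays thus lay far under the controls while still above the median probe set, and array 2 carried more of the transcript than array 1. On the linear scale these values are 3336 and 2343 against 20.2 and 81.5. The group means were 11.45 ± 0.36 and 5.34 ± 1.42 (n = 2 arrays each), a log2 difference of -6.10 with a standard error of 0.76 and a 95% interval of -8.21 to -4.0, or 68.8-fold lower (limma adjusted p = 0.165). Of the 20656 genes only 2 had a more negative difference. The gap of 2.01 between the *Ddb1*-deficient arrays is the widest of the 6 genes, and 6.24% of all genes had a gap of at least 1.5 between these arrays.

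Of the serine proteases, *Ctsg* (cathepsin G, of chymotrypsin-like specificity) measured 7.37 and 6.20 in the controls against 1.33 and 1.13 in *Ddb1*-deficient LSKs. Both *Ddb1*-deficient values lay under the median probe set, where a log2 difference is least sure. The difference was -5.56 (95% interval -6.82 to -4.29, SE 0.45, limma adjusted p = 0.133), number 4 from the most negative of all genes, and -2.80 with 16 added to every intensity. The group means were 6.79 ± 0.82 and 1.23 ± 0.14 (n = 2 arrays each), the SD of the *Ddb1*-deficient arrays being that of dim values.

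*Elane*, the gene of neutrophil elastase, measured 5.83 and 4.97 in the controls against 2.39 and 1.6 in *Ddb1*-deficient LSKs. The lower of these, on array 2, is under the median probe set and the other above it. The log2 difference was -3.41 (95% interval -4.66 to -2.16, SE 0.45, limma adjusted p = 0.174), and 0.218% of all genes had a more negative one. With 16 added to every intensity it was -1.55. *Prtn3*, the gene of proteinase 3, measured 6.58 and 6.28 in the controls against 3.54 and 5.04 in *Ddb1*-deficient LSKs. Its arrays separated too, and *Ddb1*-deficient array 2 lay nearer to the controls than array 1. The log2 difference was -2.14 (95% interval -3.72 to -0.55, SE 0.57, limma adjusted p = 0.345), and 0.881% of all genes had a more negative one. Without *Ddb1*-deficient array 1 it was -1.38 and without array 2 it was -2.89, and with 16 added to every intensity it was -1.47. *Elane* and *Prtn3* lie next to each other on chromosome 10, yet between the *Ddb1*-deficient arrays *Prtn3* was higher by 1.5 on array 2 and *Elane* lower by 0.79.

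*Ms4a3*, the membrane protein of granulocyte-monocyte progenitors, measured 5.11 and 4.89 in the controls against 2.65 and 2.40 in *Ddb1*-deficient LSKs. Replicates were close in both groups, with SDs of 0.16 and 0.18. The log2 difference was -2.48 (95% interval -3.06 to -1.90, SE 0.21, limma adjusted p = 0.133), a 5.57-fold lower intensity, and -1.14 with 16 added to every intensity.

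*Srgn*, the serglycin core protein, measured 9.63 and 9.37 in the controls against 8.93 and 9.10 in *Ddb1*-deficient LSKs. The groups did not overlap, but the *Ddb1*-deficient values stayed well above the median probe set. Its log2 difference was -0.48 (95% interval -1.05 to 0.08, SE 0.20, limma adjusted p = 0.525), and 15.4% of all genes had a more negative one. The interval of *Srgn* does not reach those of *Mpo*, *Ctsg*, *Elane* or *Ms4a3*, and it overlaps that of *Prtn3*; the difference between these genes was not tested. Serglycin is not particular to granulocytes, since megakaryocytes, mast cells, lymphocytes, macrophages and endothelial cells make it too. On the same arrays 4 of 7 megakaryocyte markers and 5 of 8 endothelial markers were higher on both *Ddb1*-deficient arrays (median log2 differences 0.57 and 1.39), and 4 of 7 mast cell and basophil markers were lower on both (median -0.43). Of all genes 22.5% were higher and 18.5% lower on both. The summed linear intensity was 252 and 241 on the control arrays against 643 and 564 for the megakaryocyte markers (*Gp9* was below the median probe set) and 39 and 37 against 26 and 21 for the mast cell and basophil markers, of which *Mcpt4*, *Tpsb2* and *Fcer1a* were below the median probe set. The part of these cells in the level of *Srgn* was not tested.

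**Figure D2:**
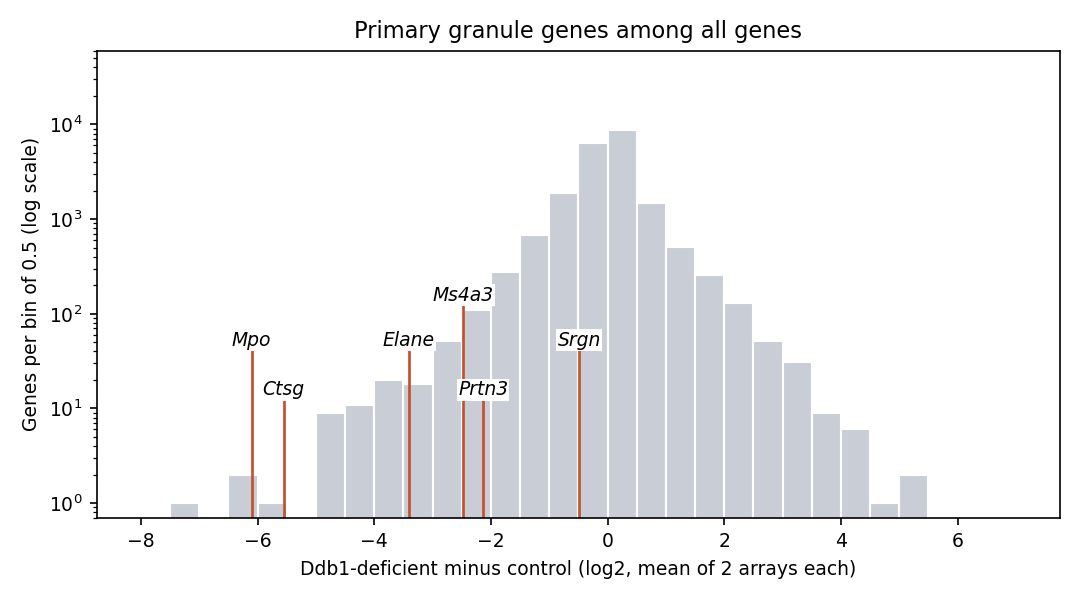
Distribution of the log2 difference (*Ddb1*-deficient minus control, mean of 2 arrays each) over 20656 genes in bins of 0.5, with the number of genes on a log axis; red lines mark the 6 primary granule genes. *Mpo* (-6.10) and *Ctsg* (-5.56) lie at the far left, *Elane* (-3.41), *Ms4a3* (-2.48) and *Prtn3* (-2.14) in the left tail and *Srgn* (-0.48) within the bulk.

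In order of the log2 difference the genes were *Mpo*, *Ctsg*, *Elane*, *Ms4a3*, *Prtn3* and *Srgn*, and the 95% intervals of neighbours in this order overlap. The order depends on the dim values: with 16 added to every intensity *Prtn3* (-1.47) came before *Ms4a3* (-1.14). Between the control arrays all 6 genes were higher on array 1, by 0.51 (*Mpo*), 0.86 (*Elane*), 0.30 (*Prtn3*), 1.17 (*Ctsg*), 0.23 (*Ms4a3*) and 0.27 (*Srgn*), where 49.4% of all genes were higher on that array. Between the *Ddb1*-deficient arrays 3 genes (*Mpo*, *Prtn3* and *Srgn*) were higher on array 2 and 3 on array 1, against 51.3% of all genes higher on array 2. Late granules are filled after the primary ones. The list of 11 late granule genes also holds *S100a8* and *S100a9*, whose proteins are cytosolic. Of the list 10 were lower on control array 1 than on array 2. Its mean log2 intensity was 7.31 on control array 1 and 8.0 on array 2.

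The genes whose 4 values, taken less their own mean, lay closest to those of a member were sought among 10328 genes. For *Mpo* these were *Serpinb1a* (distance 1.61 in log2 units), *Ctsg* (1.72) and *H2-Aa* (2.11). *H2-Aa*, an MHC class II chain of antigen-presenting cells, measured 9.92 and 9.03 in the controls against 3.79 and 2.84 in *Ddb1*-deficient LSKs. *Serpinb1a* encodes a cytosolic inhibitor of neutrophil elastase, proteinase 3 and cathepsin G, and its values were 7.64 and 7.68 in the controls against 2.08 and 4.14 in *Ddb1*-deficient LSKs, with more signal on array 2 as for *Mpo*. For *Ctsg* they were *H2-Aa* (0.82), *F13a1* (1.40) and *Prr15* (1.40), for *Elane* *Kmo* (0.56), *Btla* (0.58) and *Slco3a1* (0.61), and for *Prtn3* *Kctd3* (0.31), *Rbpj* (0.33) and *Il18rap* (0.40). *Ms4a3* was closest to *Polrmt* (0.25), *C030046G05* (0.25) and *Utp14b* (0.26), and *Srgn* to *Coq9* (0.03), *Cdk4* (0.05) and *Tapbpl* (0.05). With 4 arrays such likeness is a description, and distances are shorter for genes with small differences. Apart from *Ctsg* beside *Mpo*, no member was among the 3 closest genes of another.

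The protease maturation, sorting and inhibition list held genes of both directions, most of them lower. Of its 13 genes 9 were lower and 3 higher on both *Ddb1*-deficient arrays, against 18.5% and 22.5% of all genes. The median log2 difference was -0.21. At an unadjusted p under 0.05 limma gave 3 lower and 1 higher (4.9% of all genes were higher by this rule), with 0 called after adjustment. *Ctsc*, the gene of cathepsin C, measured 8.58 and 8.31 in the controls against 10.58 and 10.73 in *Ddb1*-deficient LSKs, a log2 difference of 2.21 with all 3 of its probe sets in this direction. The activating enzyme was thus higher on the arrays on which the 3 proteases were lower. Macrophages also express *Ctsc*, and 11 of 11 macrophage markers were higher there. The part of macrophages in the level of *Ctsc* was not tested. *Cst7*, the gene of cystatin F, an inhibitor of cathepsin C, was at 4.40 and 3.30 against 1.40 and 1.36 (log2 difference -2.47), the latter values under the median probe set. *Serpinb1a* had a log2 difference of -4.54, or -3.59 by its other probe set. *Lyst*, the lysosomal trafficking regulator mutated in beige mice, was at 4.87 and 4.27 against 2.77 and 1.43 (-2.47), with 1 of its 3 probe sets in the other direction. Its value on *Ddb1*-deficient array 2 lay under the median probe set. *Calr* (0.37) and *Canx* (0.45), chaperones that fold the precursor of myeloperoxidase, were higher on both *Ddb1*-deficient arrays.

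The other contents of primary granules showed no common direction. Of 8 such genes 5 had a probe set of their own, with a median log2 difference of 0.26. On both *Ddb1*-deficient arrays 1 was lower and 1 higher, against 18.5% and 22.5% of all genes. The median was 0.62 without *Ddb1*-deficient array 1 and -0.15 without array 2. *Lyz1*, a lysozyme gene, measured 10.02 and 10.57 in the controls against 9.33 and 9.80 in *Ddb1*-deficient LSKs (log2 difference -0.73), and *Lyz2*, a near copy whose signal may be shared with it, differed by -0.47 with overlapping arrays. *Man2b1*, a lysosomal mannosidase, was at 6.06 and 5.70 against 7.10 and 7.47 (1.41), although its other probe set gave -0.53. Lysozymes and lysosomal hydrolases are also made by macrophages.

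Among the transcription factors that act on granule genes, *Irf8*, a factor of the monocyte branch, measured 6.43 and 6.02 in the controls against 3.84 and 3.92 in *Ddb1*-deficient LSKs. This log2 difference of -2.34 (limma adjusted p = 0.146) was the widest of the 10 measured, and its other probe set gave -1.68. *Myb*, an activator of *Mpo* and *Elane*, was at 11.10 and 10.94 against 9.98 and 9.77 (-1.14, all 3 probe sets lower). *Runx1* differed by -0.94, with 3 of its 8 probe sets in the other direction, and *Cbfb*, its partner, by -0.62. *Gfi1*, a repressor needed for neutrophil maturation, was at 6.92 and 5.67 against 7.96 and 7.90 (1.63). *Spi1*, the gene of PU.1 (5.49 and 4.20 against 5.82 and 4.50), and *Cebpa* (4.88 and 4.05 against 4.39 and 3.73), the principal activators of the granule program, had overlapping arrays. In all, 5 of the 10 were lower and 2 higher on both *Ddb1*-deficient arrays (median -0.51), against 18.5% and 22.5% of all genes. At an unadjusted p under 0.05 limma gave 4 lower and 1 higher, against 6.03% and 4.9% of all genes, with 0 called after adjustment.

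Enzymes that build the chondroitin and heparan sulfate chains of serglycin were measured for 13 of 15 genes. The median log2 difference was -0.07, or -0.70 over the genes of the list above the median of all genes. On both *Ddb1*-deficient arrays 4 were lower and 2 higher, against 18.5% and 22.5% of all genes. At an unadjusted p under 0.05 limma gave 2 lower and 1 higher, against 6.03% and 4.9% of all genes, and 0 after adjustment. Among the 4 lower genes, *B4galt7*, which adds the first galactose of the linker, was at 5.19 and 5.0 against 3.92 and 3.46 (-1.40), and *Chst15*, a chondroitin sulfotransferase, at 4.78 and 4.26 against 3.82 and 3.04 (-1.09). *B3galt6*, the next linker enzyme, differed by -1.66, of which most came from *Ddb1*-deficient array 2 (5.64 and 5.34 against 5.23 and 2.44), and 1 of its 3 probe sets went the other way. *Chst12* was at 2.89 and 2.88 against 3.87 and 3.53 (0.81).

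Late granule genes lay lower as the primary granule enzymes did. Of 11 genes 9 were lower and 0 higher on both *Ddb1*-deficient arrays (median log2 difference -3.76), against 18.5% and 22.5% of all genes. At an unadjusted p under 0.05 limma gave 9 lower, against 6.03% of all genes, with 0 called after adjustment. The summed linear intensity of the list was 9257 and 14718 on the control arrays against 939 and 449. Its highest log2 intensities were those of *S100a8* (11.84 and 12.47 against 8.07 and 6.85) and *S100a9* (11.82 and 12.43 against 9.0 and 7.73). The proteins of both genes are cytosolic and not granule contents. The part of more mature cells in these values was not tested. *Chil3* (-7.20), *Camp* (-4.89), *Olfm4* (-4.83) and *Ltf* (-4.72) had the most negative differences among them, of which that of *Chil3* rests on *Ddb1*-deficient values under the median probe set (2.04 and 1.19). By contrast the receptors of myeloid progenitors had a median of 0.04 over 8 genes (0.36 without *Ddb1*-deficient array 1, -0.33 without array 2, and 0.51 over genes above the median), with 2 lower and 3 higher on both *Ddb1*-deficient arrays. *Csf1r* (8.98 and 9.52 against 11.57 and 11.79, 2.43) and *Fcgr3* (5.73 and 6.71 against 8.04 and 8.09, 1.84) were the highest of them, and macrophages express both. *Csf3r*, the receptor of granulocyte colony-stimulating factor, was at 2.29 and 1.88 against 1.66 and 1.66, near or under the median probe set on all arrays.

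**Figure D3:**
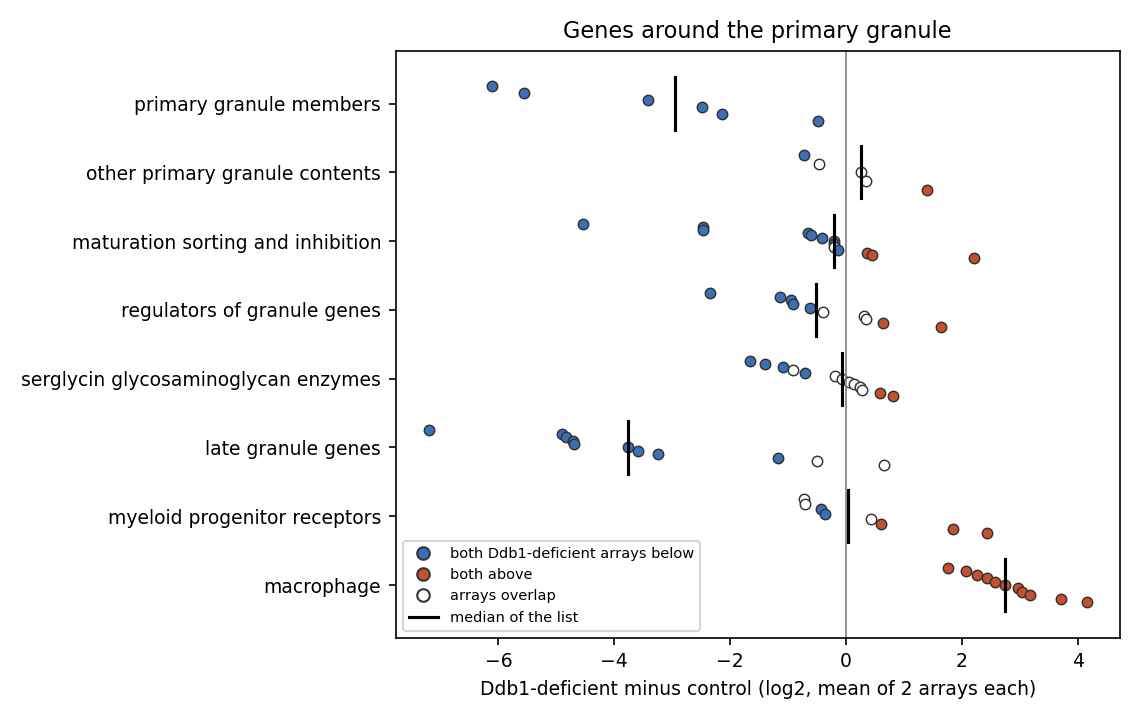
Log2 difference (*Ddb1*-deficient minus control, mean of 2 arrays each) of the 6 primary granule genes and of 7 related gene lists, 1 point per gene and a bar at the median; blue points have both *Ddb1*-deficient arrays below both control arrays, red points both above, open points overlap. The primary (median -2.94) and late granule genes (-3.76) lie to the left and the macrophage markers (2.75) to the right. The medians of the other lists lie between -0.51 and 0.26.

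Other cells that carry granule proteins or members of the same families were examined too. Of 5 eosinophil granule genes 2 were lower and 1 higher on both *Ddb1*-deficient arrays, against 18.5% and 22.5% of all genes. The median of the 5 was -1.19, or -0.37 without control array 1 and -2.12 without control array 2. *Prg2*, the gene of major basic protein, was at 5.57 and 5.0 against 1.77 and 2.75 (-3.02), with *Ddb1*-deficient array 1 under the median probe set. *Ear2*, a ribonuclease gene, was at 6.19 and 6.47 against 7.48 and 8.27 (1.54). Of 7 cytotoxic lymphocyte genes, whose granules are also packed with serglycin, 3 were lower and 1 higher on both *Ddb1*-deficient arrays. *Gzmb*, the gene of granzyme B, measured 3.28 and 2.62 against 1.80 and 2.06 (-1.02). *Cpa3*, a mast cell carboxypeptidase, was at 3.09 and 3.12 against 1.84 and 1.91 (-1.23). For *Gzmb* and *Cpa3* both *Ddb1*-deficient values lay under the median probe set.

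The neighbours of the members on the chromosomes lay in both directions. Counting the 5 nearest measured genes on each side, 50 neighbours that are no members had a median log2 difference of 0.10. Of these 7 were lower and 17 higher on both *Ddb1*-deficient arrays, against 18.5% and 22.5% of all genes, and 20 were below the median probe set on all arrays. *Mpo* lies on chromosome 11 in a cluster of heme peroxidases. *Lpo*, the lactoperoxidase gene next to it, was below the median probe set on all arrays (1.2 to 1.66). *Epx*, eosinophil peroxidase, was at 2.85 and 2.40 against 1.82 and 2.02 (-0.70), the latter values under the median probe set. *Ctsg* stands on chromosome 14 between mast cell proteases and granzymes, and its 10 neighbours, of which *Mcpt8* alone was above the median probe set on any array, had differences between -0.43 and 0.34. *Cfd*, the serine protease adipsin beside *Elane*, was at 2.14 and 1.74 against 1.94 and 2.39, with overlapping arrays. The neighbours of *Srgn* on chromosome 10 had differences between -0.38 and 0.77.

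The cluster of *Ms4a3* on chromosome 19 was the one with wider differences, from -2.19 to 1.67. *Ms4a2*, the gene of the beta chain of the high-affinity IgE receptor and the nearest neighbour, measured 2.88 and 3.45 in the controls against 2.02 and 1.93 in *Ddb1*-deficient LSKs (-1.19), with a dim second probe set at -0.05. Both *Ddb1*-deficient values lay under the median probe set. *Ms4a6d*, 1 gene further, was at 6.72 and 6.40 against 8.59 and 7.88 (1.67), so that genes of the family lay on both sides of 0. *Ms4a6b* (7.55 and 6.90 against 7.61 and 8.10, 0.63) was also higher on both *Ddb1*-deficient arrays.

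**Figure D4:**
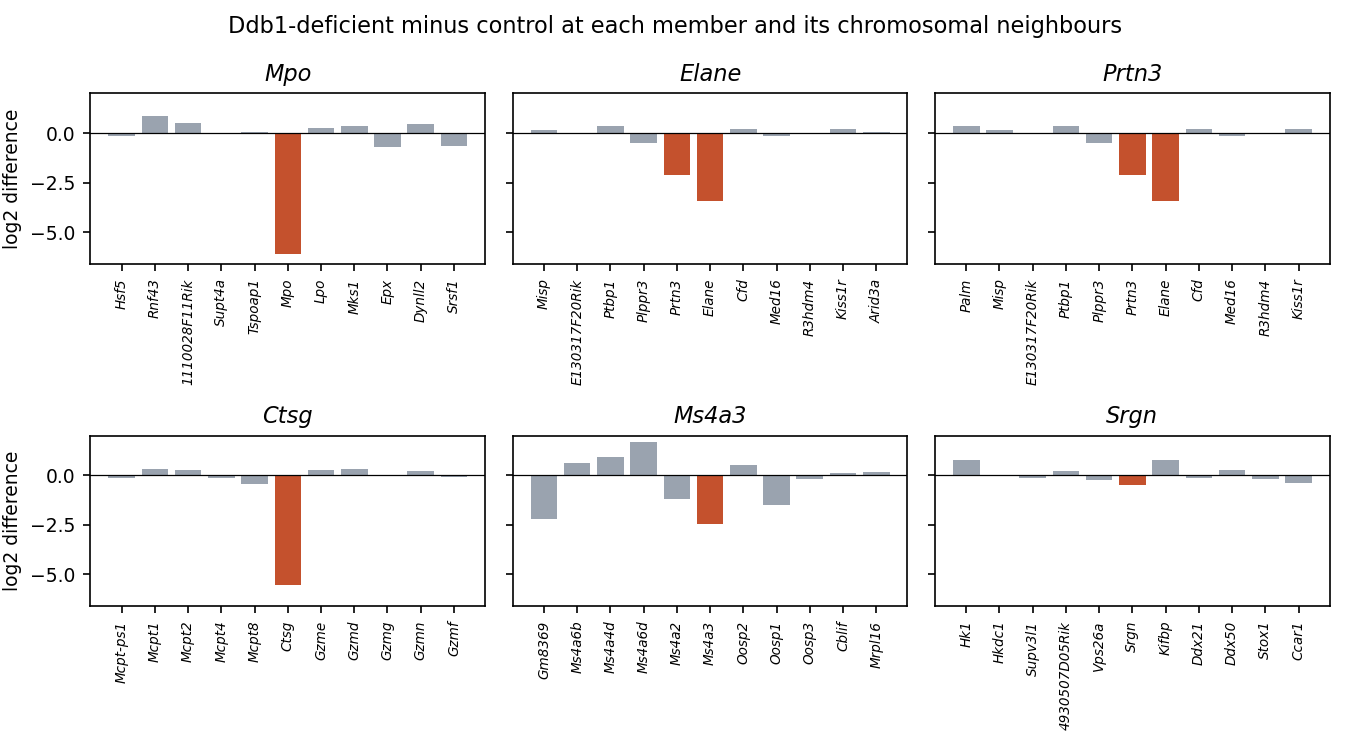
Log2 difference (*Ddb1*-deficient minus control, mean of 2 arrays each) of each primary granule gene (red) and its 5 nearest measured neighbours on each side (grey), in chromosomal order and with 1 panel per gene. Beside *Mpo* (-6.10) and *Ctsg* (-5.56) no neighbour lies outside -0.70 to 0.88, and only the *Ms4a3* panel holds grey bars beyond 1 in either direction.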

How the data were processed

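RNA of sorted fetal liver LSKs was hybridised to 4 Affymetrix Mouse430_2 arrays, 2 per group, grouped by the sample labels. From 20 ng of RNA the authors made the target by 2-cycle amplification, with RMA in GeneSpring to summarise the arrays, and the deposited table holds their RMA intensity on a linear scale for 45101 probe sets. The authors also deposited log2 values relative to the control mean, which equal the log2 of the intensities less that mean to within 2.0e-06. A second deposited table holds the authors' own comparison (p-value and fold change) and was not used. The genome build of the alignments is not given in the sources used here.

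The log2 of the intensity was used, without 64 control probe sets. Gene names were updated by Entrez ID with a RefSeq table (34158 of 37463 probe sets with 1 name matched), and the probe set with the highest mean stands for a gene. The groups were compared by limma 3.58.1 (lmFit, then eBayes; R 4.3.3), two-sided and without a block, with Benjamini-Hochberg adjustment over 20656 genes, a threshold of 0.05, 2 residual and 1.96 prior degrees of freedom; 95% intervals come from this fit. The fit was tested on simulated data. Genes named are the 6 members, their neighbours and like genes, and from each list up to 4 genes with separate arrays, the largest differences and a higher group mean above the median over genes (2.61), or the 2 largest where there were none; *Lyz2*, *Calr*, *Canx*, *Cbfb*, *Spi1*, *Cebpa*, *Csf3r*, *Itgam*, *Cd3e*, *Kit* and *Ly6a* were added for their roles after their values were seen. The members and lists were chosen with earlier results of these data known. The alternatives are named in the closing section. The number of arrays limits the precision.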

Additional observations from a re-analysis of the deposited data

How the results depend on the processing

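The 6 members and *Ddb1* kept their direction under every alternative that was run (105 values), and none was called in any, which with 2 arrays a group says nothing of stability. Several of the settings leave a difference as it is by construction. The settings tried were the methods' test (equal variance), eBayes with trend and robust, the replicate block, the mean of all probe sets, probe sets kept singly, probe sets without the suffixes _x_at and _s_at, genes above the median, the series matrix values, centring, quantile normalization and each array left out. Adding 16 to the intensity, which shrinks differences of dim genes, gave log2 -1.55 for *Elane*, -2.80 for *Ctsg*, -1.47 for *Prtn3*, -1.14 for *Ms4a3*, -0.47 for *Srgn* and -5.56 for *Mpo*. With 1 array left out the differences ran from -7.11 to -5.10 (*Mpo*), -3.84 to -2.98 (*Elane*), -2.89 to -1.38 (*Prtn3*), -6.14 to -4.97 (*Ctsg*), -2.60 to -2.35 (*Ms4a3*), -0.62 to -0.35 (*Srgn*) and -1.82 to -1.57 (*Ddb1*), where the lone array is assumed to vary like the other group. Genes called over the whole array were 0 lower and 0 higher by limma, 1 and 1 by the methods' test after adjustment, and 1245 and 1012 by limma at an unadjusted p under 0.05.

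Arrays with the same number share the sex markers, but the labels do not pair them, and their deviations from the group means had r = -0.016 across genes. In this balanced layout a replicate block cannot change a difference, only its error. The differences thus stayed those of the main fit, -6.10 (*Mpo*), -3.41 (*Elane*), -2.14 (*Prtn3*), -5.56 (*Ctsg*), -2.48 (*Ms4a3*), -0.48 (*Srgn*) and -1.70 (*Ddb1*). With the block the adjusted p lay between 0.391 and 0.642 by limma, and 0 genes were called. Of 224 list medians under the alternatives 197 moved by less than the spread between arrays. That count includes settings that cannot move a median. They are the methods' test, eBayes with trend and robust, the replicate block and the series matrix values, which leave every difference as it is.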
